A study of Mus musculus with 18 samples.

Results

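The gene counts of 10 genes of ferritin and iron handling, out of 54532 genes in the deposited table, are described here in the WT and FOXS1 KO lines of 10T1/2 cells. The genes are *Fth1* and *Ftl1* (storage), *Tfrc*, *Trf*, *Slc11a2* and *Slc39a14* (uptake), *Slc40a1* (export), *Hmox1* (heme breakdown) and *Ireb2* and *Aco1* (regulation), and all 10 were found by name. They were picked by function, with *Fth1* chosen on measured values, namely its high transcript level and its difference between WT cells and FOXS1 KO clones after stimulation. Those stimulated differences, the responses of *Fth1* and the differences in response between a clone and WT cells are therefore given as a description, with no test. *Trf* is also given with no test against WT cells or between treatments, since it passed the filter on low counts only through the uninduced clones. The tests concern uninduced cells, the responses of the other genes to stimulation and the comparison of the clones with each other.

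The cells are of the mouse mesenchymal line that the labels call CH310T1/2 (10T1/2), a fibroblast line that can form adipocytes. WT cells carry no edit, and FOXS1 KO clones 1 and 2 are colonies grown from single cells after CRISPR/Cas9 cutting with pairs of guide RNAs against *Foxs1*, so that the 3 libraries of a clone are not separate clones. Each genotype was sampled uninduced, as a control, and after 1 nM TGF-β1 for 12 h followed by 48 h in DMII, an adipogenic medium with insulin, indomethacin, dexamethasone and 3-isobutyl-1-methylxanthine (TGF-β1 + DMII stimulated). There were 3 libraries in each of the 6 groups, and p-values measure the spread between these libraries, since no source says whether they came from separate cultures.

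Cells take up iron bound to transferrin (*Trf*) through the transferrin receptor (*Tfrc*), move it across membranes with *Slc11a2* (DMT1) and *Slc39a14* (ZIP14), store it in ferritin shells of heavy (*Fth1*) and light (*Ftl1*) chains and release it through ferroportin (*Slc40a1*). Iron regulatory proteins, made from *Aco1* and *Ireb2*, bind hairpins called iron responsive elements (IREs) in several of these mRNAs when iron is low. Binding in a 5′ UTR blocks translation, as in ferritin and ferroportin, and binding in the 3′ UTR of *Tfrc* protects the mRNA from decay, so that mRNA counts and protein need not move together.

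The IREs that a search of GENCODE M21 transcripts (GRCm38) found in these genes are printed here because they are the known kind of site through which the regulatory proteins act on an mRNA, with the first 5 of the 6 bases of the hairpin loop in capitals, 5′ to 3′ in the sense of the transcript.
Fth1, 5′ UTR, chr19:9982732-9982760, + strand: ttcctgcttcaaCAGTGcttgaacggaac
Ftl1, 5′ UTR, chr7:45459779-45459807, - strand: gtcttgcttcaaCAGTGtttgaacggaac
Tfrc, 3′ UTR, chr16:32631219-32631247, + strand: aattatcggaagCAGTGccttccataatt
Tfrc, 3′ UTR, chr16:32631598-32631626, + strand: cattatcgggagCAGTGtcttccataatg
Tfrc, 3′ UTR, chr16:32631663-32631691, + strand: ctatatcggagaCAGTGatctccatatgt
Tfrc, 3′ UTR, chr16:32631710-32631738, + strand: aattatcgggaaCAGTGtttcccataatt
Slc40a1, 5′ UTR, chr1:45925465-45925493, - strand: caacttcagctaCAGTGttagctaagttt

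The motif searched was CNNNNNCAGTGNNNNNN, on the transcript's own strand, with the 5 bases before the loop able to pair with the last 5 (G-T pairs allowed), and 6 further bases are shown before and after it. Such a match lay in the 5′ UTR of 0.151% of the 20597 genes with an annotated 5′ UTR and in the 3′ UTR of 0.615% of the 20979 with a 3′ UTR. It was found in 4 of the 10 genes, with 7 elements in all, 4 of them in *Tfrc*. In *Fth1* it was in 4 of 5 coding transcripts, in *Ftl1* in 1 of 2, in *Tfrc* in 1 of 3 and in *Slc40a1* in 1 of 4, and the deposited counts sum all transcripts of a gene. The other 6 genes had no match to these letters, which says nothing about binding.

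Levels are CPM, counts per M counts of a TMM-scaled library, given for replicates 1, 2 and 3 of a group in that order. Fold changes are log2 ± SE, and edgeR's adjusted p-values (Benjamini-Hochberg) run over the 14317 genes tested. A differentially expressed gene (DEG) had an adjusted p under 0.05 and an absolute log2 fold change above 1. Library totals ran from 15576685 to 42005596 counts. In bulk RNA, fewer cells that express a gene and less RNA per cell cannot be told apart. *Foxs1* itself had a mean of 2.23 ± 0.886 CPM (SD, n = 3) under the uninduced WT label and of 25.7 ± 2.04 and 22.6 ± 1.44 CPM under the labels of uninduced clones 1 and 2. After stimulation it had 2.51 ± 0.641 CPM under the WT label and 54.5 ± 2.06 and 39.9 ± 2.59 CPM under the labels of clones 1 and 2, so that gene counts do not show the edit. All 8 fibroblast markers had counts in every group, though *Thy1* ran from 0.120 to 192 CPM and *Dcn* from 5.58 to 170 CPM over the libraries. Of 8 macrophage markers, *Ptprc* was at 0 in every library, and their sum was 4.51 to 9.87 CPM in WT libraries, 50.1 to 54.0 in uninduced clone 1, 31.7 to 34.3 in uninduced clone 2 and 14.7 to 22.1 in stimulated clones, with *Cd14* reaching 46.9 CPM. Endothelial, epithelial and erythroid markers summed to at most 7.92, 3.57 and 0.864 CPM in any library.

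**Figure D1:**
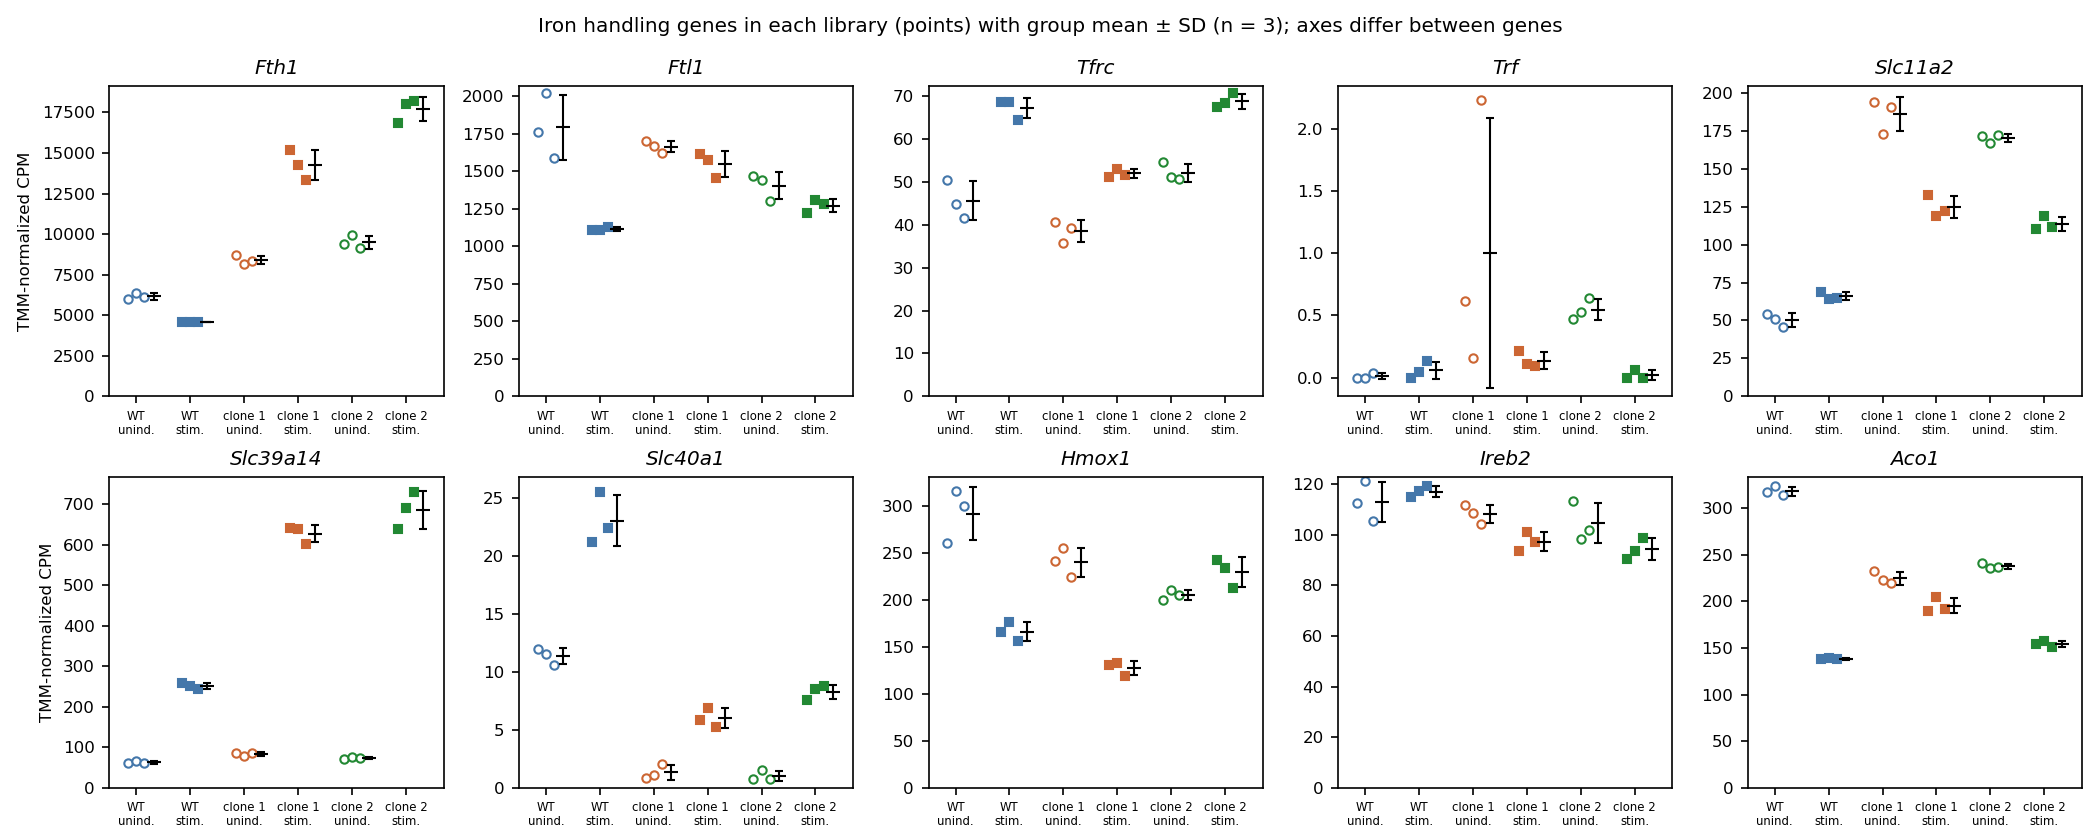
TMM-normalized CPM (y axis, from 0 except for *Trf*, whose axis starts just below 0) of the 10 iron handling genes in the 18 libraries, by group (x axis), with open circles for uninduced and filled squares for stimulated cells and the group mean ± SD (n = 3) beside them. *Fth1* is highest in the stimulated clones, *Slc11a2* in the uninduced clones, and *Slc40a1* is lower in all clone libraries than in all WT libraries.

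In uninduced cells the clones had more *Slc11a2*, the DMT1 iron importer, and less *Slc40a1*, the iron exporter, than WT cells. In clone 1, 2 of the 9 genes other than *Trf* were DEGs (1 higher, 1 lower), beside 15.1% of all genes tested (6.32% higher, 8.73% lower). Clone 2 also had 2 of 9 (1 higher, 1 lower), beside 15.1% (5.54% and 9.56%). In both clones the DEGs were *Slc11a2* and *Slc40a1*, and both contrasts share the WT libraries. Counted by the adjusted p alone, 7 of 9 differed in clone 1, beside 53.5% of all genes, and 8 of 9 in clone 2, beside 53.2%. The median log2 fold change of the 9 genes was -0.11 in clone 1 and -0.11 in clone 2, beside -0.01 and -0.02 over all genes tested.

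**Figure D2:**
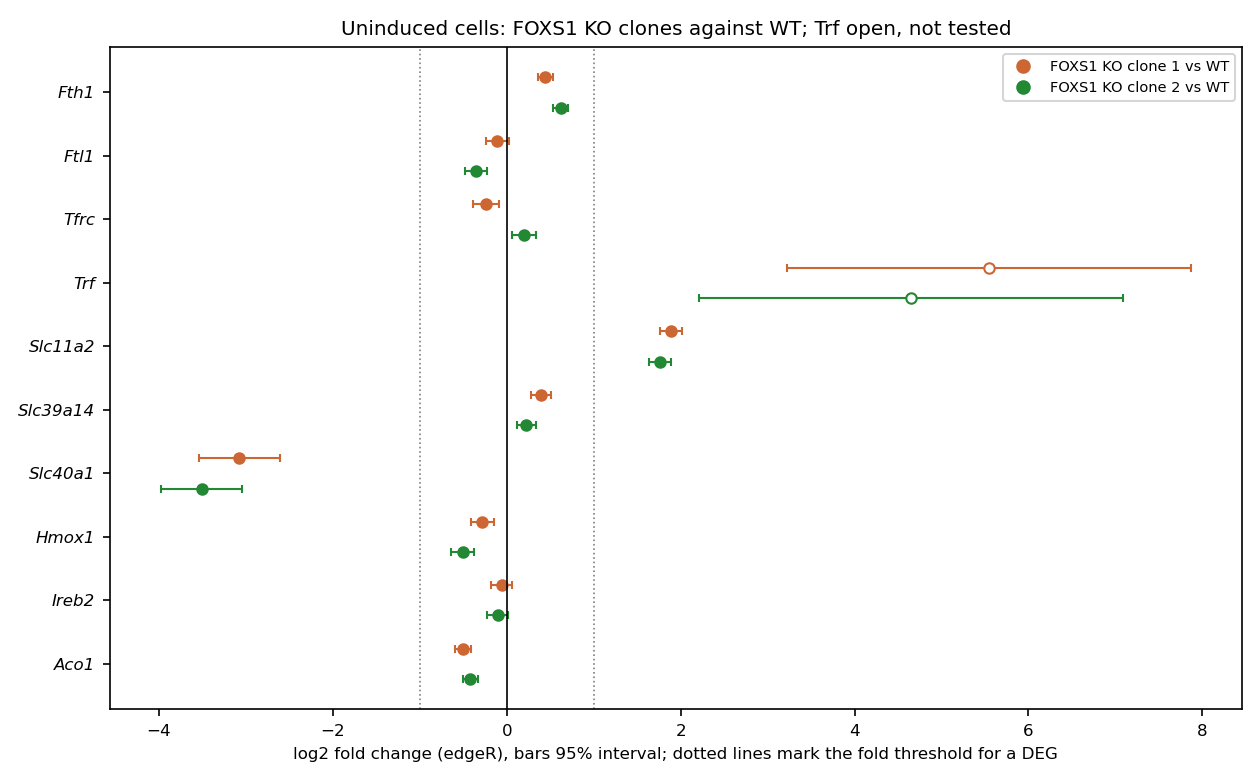
Log2 fold change (x axis, bars 95% intervals) of each iron handling gene (y axis) in uninduced FOXS1 KO clone 1 (orange) and clone 2 (green) relative to WT cells, with dotted lines at the fold threshold of a DEG. *Slc11a2* lies at 1.89 and 1.76, *Slc40a1* at -3.08 and -3.51, and *Trf*, open because it was not tested, has the widest intervals.

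Stimulation raised *Slc39a14* and *Slc40a1* in all 3 genotypes. Of the 8 genes tested for a response, which leave out *Fth1* and *Trf*, 3 were DEGs in WT cells (2 higher, 1 lower), beside 19.9% of all genes (6.25% higher, 13.6% lower). There were 2 of 8 in clone 1 (2 higher, 0 lower), beside 16.7% (5.95% and 10.7%), and 2 of 8 in clone 2 (2 higher, 0 lower), beside 17.7% (6.46% and 11.2%). By the adjusted p alone, 7 of 8 responded in each genotype, beside 60.7%, 54.5% and 55.8% of all genes in WT cells, clone 1 and clone 2. The gene that fell past the fold threshold was *Aco1*, in WT cells. The median log2 fold changes of the 8 genes were 0.22, -0.13 and 0.01 in that order, beside -0.04, -0.02 and -0.02 over all genes. Between stimulated clones and stimulated WT cells, the contrast on which *Fth1* was chosen, the thresholds of a DEG are used as a description, with nothing read from the counts. They took in *Fth1* and 2 others of 10 genes in clone 1 (2 higher, 1 lower), beside 19% of all genes (9.42% and 9.6%), and the same 3 genes, *Fth1*, *Slc39a14* and *Slc40a1*, in clone 2, beside 16.9% (7.95% and 8.94%). Without the fold threshold they took in 9 of 10 and 8 of 10, *Fth1* included, beside 58.9% and 56% of all genes.

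**Figure D3:**
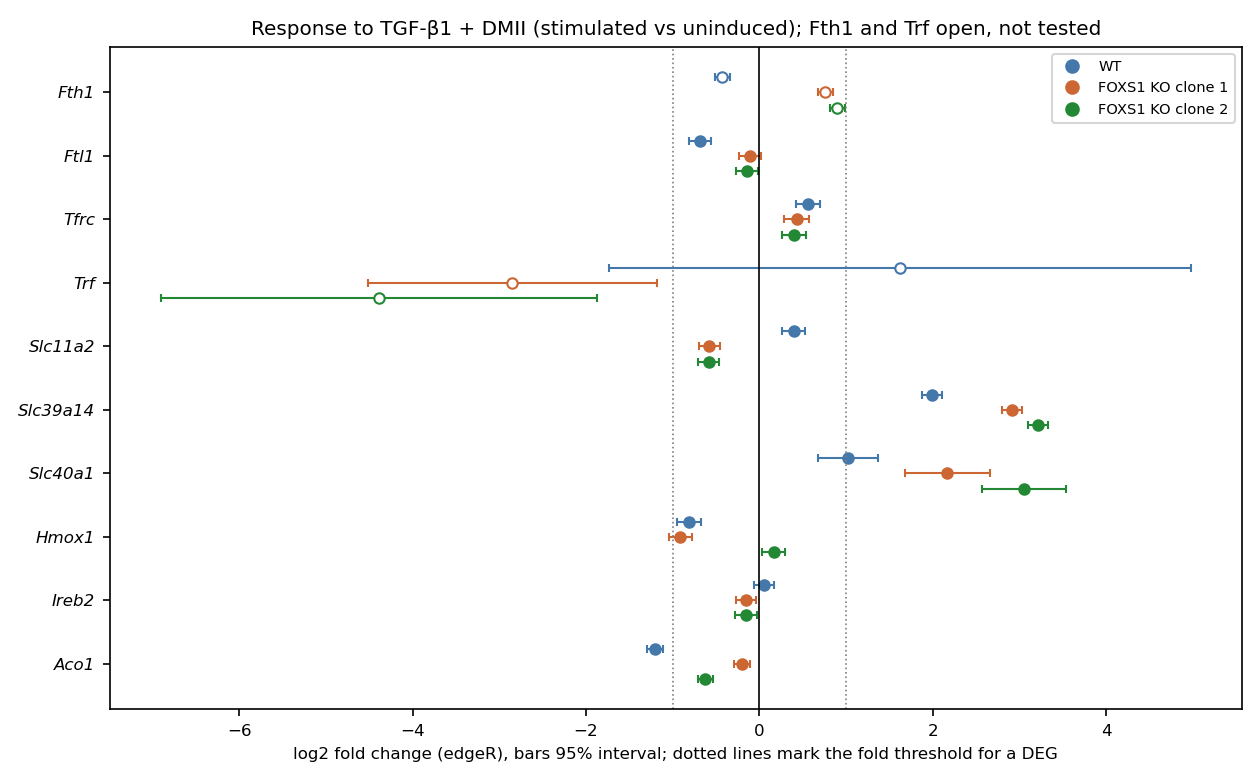
Log2 fold change (x axis, bars 95% intervals) of each iron handling gene (y axis) in stimulated relative to uninduced cells of WT (blue), clone 1 (orange) and clone 2 (green), with dotted lines at the fold threshold of a DEG and *Fth1* and *Trf* open because their responses were not tested. *Slc39a14* lies to the right in all 3 genotypes, *Slc11a2* to the right in WT cells and to the left in both clones, and *Hmox1* to the left in WT cells and clone 1.

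*Fth1* (ENSMUSG00000024661, chr19:9982703-9985092, + strand) makes the ferritin heavy chain, which oxidizes iron as it enters the shell. It ranked 2 of all genes by CPM per kb of gene length in every group. By CPM alone it ranked 9 and 13 in uninduced and stimulated WT cells, 4 in uninduced clone 2 and 3 in other clone groups. Uninduced WT libraries had 5983, 6399.9 and 6145 CPM, against 8699, 8171 and 8345 CPM in uninduced clone 1 and 9363, 9957 and 9160.3 CPM in uninduced clone 2. Every clone library was above every WT library. The log2 fold change in uninduced cells was 0.44 ± 0.0426 in clone 1 (SE, n = 3 against 3, edgeR adjusted p = 3.77e-10) and 0.62 ± 0.0427 in clone 2 (adjusted p = 2.49e-13), both under the fold threshold of a DEG.

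After stimulation, WT libraries had 4560.1, 4609.7 and 4587 CPM, below all uninduced WT libraries, with a log2 difference of -0.43 ± 0.0426 (SE, not tested). Stimulated clone 1 libraries had 15186, 14244 and 13356 CPM and stimulated clone 2 libraries 16868, 18036 and 18205 CPM, above the uninduced libraries of the same clone. As a share of all counts, *Fth1* took 0.430% to 0.436% of each stimulated WT library, 1.25% to 1.41% of each stimulated clone 1 library and up to 1.58% of a stimulated clone 2 library. The log2 difference between stimulated and uninduced cells was 0.76 ± 0.0427 in clone 1 and 0.90 ± 0.0428 in clone 2, and exceeded that of WT cells by 1.19 ± 0.0603 and 1.33 ± 0.0604. Stimulated clones were thus 3.11 and 3.86 times the stimulated WT level. The 6 mature adipocyte markers, with *Lep* and *Cfd* at 0 in stimulated clones and *Fabp4* reaching 25.04 CPM, summed to 0.293 to 1.22 CPM in stimulated WT, 30.5 to 43.0 in stimulated clone 1 and 2.71 to 4.64 in stimulated clone 2 libraries, and their part in the level of *Fth1* was not tested.

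Between the clones, *Fth1* was lower in clone 1 than in clone 2 both uninduced, at a log2 fold change of -0.18 ± 0.0425 (SE, edgeR adjusted p = 0.00119), and stimulated, at -0.31 ± 0.0425 (adjusted p = 4.60e-07). The 357 genes of chromosome 19 at 5 CPM or more had medians of -0.16 and -0.21 in these 2 comparisons. The part of the chromosome in the level of *Fth1* was not tested. The *Fth1* response of clone 1 minus that of clone 2 was -0.14 ± 0.0601 (adjusted p = 0.147), with a 95% interval of -0.26 to -0.01, and -0.18 (adjusted p = 0.0424) without stimulated clone 1 replicate 1. By mean level the order was stimulated clone 2, stimulated clone 1, uninduced clone 2, uninduced clone 1, uninduced WT and stimulated WT, and no libraries of neighbouring groups in that order overlapped.

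Over the 18 libraries, the 5 genes whose log2 CPM followed that of *Fth1* most closely among 10058 genes at 5 CPM or more on average were *Plin2* (Pearson r = 0.995), a lipid droplet protein, *Grina* (0.990), *Mgat5* (0.978), a glycosyltransferase of the Golgi, *Mindy1* (0.974), a deubiquitinase, and *Samd4b* (0.974). The 18 points are 3 libraries of each of 6 groups that share their cells and treatment, so that these values describe the order of the groups.

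*Ftl1* (ENSMUSG00000050708, chr7:45457944-45459884, - strand) makes the light chain, which helps form the iron core. Before stimulation, WT libraries had 1764, 2021 and 1589 CPM, those of clone 1 1699.6, 1666 and 1623 CPM and those of clone 2 1465, 1443 and 1304 CPM. WT and clone 1 libraries overlapped, and all clone 2 libraries were below all WT libraries. The log2 fold change of clone 1 was -0.11 ± 0.0619 (SE, edgeR adjusted p = 0.152, 95% interval -0.24 to 0.02), but -0.18 (adjusted p = 0.00716) without uninduced WT replicate 3. In clone 2 it was -0.35 ± 0.0620 (adjusted p = 4.34e-05).

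WT libraries had 1108, 1107 and 1127 CPM of *Ftl1* after stimulation, those of clone 1 1614, 1574 and 1452 CPM and those of clone 2 1221, 1309.8 and 1283 CPM. In WT cells *Ftl1* fell, with a log2 fold change of -0.68 ± 0.0622 (SE, edgeR adjusted p = 1.43e-09). The response was -0.10 ± 0.0619 in clone 1 (adjusted p = 0.164) and -0.14 ± 0.0620 in clone 2 (adjusted p = 0.0540), and the latter passed the test at -0.20 (adjusted p = 0.0133) without uninduced clone 2 replicate 3 and at -0.14 (adjusted p = 0.0274) with a replicate block. With library totals in place of TMM factors, both were past the test, at -0.35 and -0.44. *Ftl1* was higher in clone 1 than in clone 2 uninduced, by 0.24 ± 0.0619 (adjusted p = 0.00261), and stimulated, by 0.28 ± 0.0620 (adjusted p = 6.11e-04). Stimulated clones were at 0.47 ± 0.0621 (clone 1) and 0.19 ± 0.0621 (clone 2) relative to stimulated WT cells.

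Near-identical copies could take or lend reads to *Ftl1*. A search with *Ftl1* transcripts found 9 other genes of the table that matched at 90% identity or more over at least 200 bases. Of these, 7 had counts, 13213 over all libraries, which was 1.91% to 2.60% of the sum of *Ftl1* and its copies in a library. How reads that fit *Ftl1* and a copy equally well were counted is not stated. This share would not show reads dropped from both. For *Fth1* there was 1 such gene, *Gm6977*, with 1 count, and 2 genes named as copies of it, *Fth-ps2* and *Fth-ps3*, without such a match had 1 and 0 counts. In GENCODE M21, 34.6% of the exonic bases of *Ftl1* lie under exons of *Gm22133* (0 counts) and of *Gm10252* on the opposite strand (61 counts). The gene model of *Fth1* in the deposited table is 866 bases long, against 3469 exonic bases in M21, and its values per kb use the former.

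The ratio of *Fth1* to *Ftl1*, each as CPM per kb of gene length, does not depend on library scaling. Its size does depend on the lengths used, 866 bases for *Fth1* and 1340 for *Ftl1*, which are the same in all groups. It was 5.38 ± 0.553 (SD, n = 3) in uninduced WT cells, 6.37 ± 0.0728 in stimulated WT cells, 7.82 ± 0.201 in uninduced clone 1 and 10.5 ± 0.520 in uninduced clone 2. Stimulated clone 1 had 14.3 ± 0.277 and stimulated clone 2 had 21.5 ± 0.353, the highest mean. No libraries of any pair of groups overlapped. Since *Fth1* was chosen on stimulated cells, the ratio is given with no test.

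**Figure D4:**
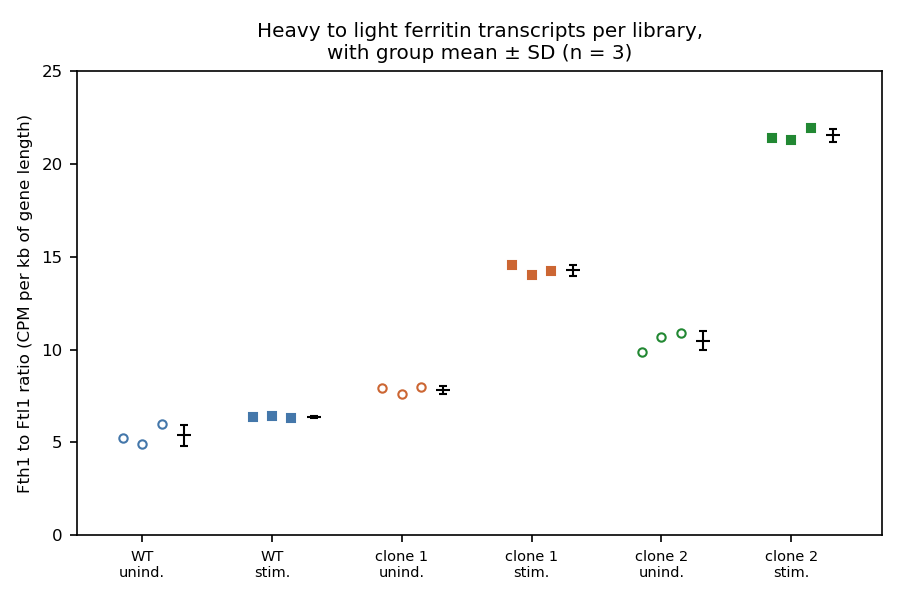
Ratio of *Fth1* to *Ftl1* (y axis, CPM per kb over CPM per kb, from 0) in each of the 18 libraries by group (x axis), open for uninduced and filled for stimulated cells, with the group mean ± SD (n = 3). The ratio is lowest in WT cells, at 5.38 and 6.37, and highest in stimulated clone 2, at 21.5.

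*Tfrc* (ENSMUSG00000022797, chr16:32608920-32632794, + strand), the transferrin receptor, with the 4 motif matches shown above in an annotated 3′ UTR, had 50.4, 44.8 and 41.5 CPM in uninduced WT libraries. Uninduced clone 1 had 40.7, 35.6 and 39.2 CPM and uninduced clone 2 54.5, 51.0 and 50.7 CPM, so that all clone 1 libraries were below and all clone 2 libraries above all WT libraries. The log2 fold change of clone 1 was -0.24 ± 0.0709 (SE, edgeR adjusted p = 0.00564) and 0.20 ± 0.0688 in clone 2 (adjusted p = 0.0155). Each call rested on single libraries. In clone 1 the adjusted p was 0.0561 without uninduced WT replicate 1 and 0.0509 without uninduced clone 1 replicate 2. In clone 2 it was 0.112 without uninduced WT replicate 3, 0.0848 without uninduced clone 2 replicate 1 and 0.0641 with only the compared groups in the fit. The 336 genes of chromosome 16 at 5 CPM or more had medians of 0.12 (clone 1) and 0.39 (clone 2) on the log2 scale, and its part in these values was not tested.

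WT libraries had 68.5, 68.5 and 64.4 CPM of *Tfrc* after stimulation, those of clone 1 51.1, 53.1 and 51.6 CPM and those of clone 2 67.3, 68.3 and 70.5 CPM. *Tfrc* rose on stimulation in each genotype without overlap of the libraries, by 0.56 ± 0.0686 in WT cells (SE, edgeR adjusted p = 2.87e-08), 0.43 ± 0.0701 in clone 1 (adjusted p = 5.18e-06) and 0.40 ± 0.0681 in clone 2 (adjusted p = 1.12e-05), the last of which was 0.10 (adjusted p = 0.190) with library totals in place of TMM factors. Clone 1 was lower than clone 2 uninduced (-0.44 ± 0.0698, adjusted p = 6.65e-06) and stimulated (-0.40 ± 0.0685, adjusted p = 1.43e-05). Relative to stimulated WT cells, the value was -0.37 ± 0.0677 in clone 1 and 0.03 ± 0.0677 in clone 2, and the latter turned to -0.08 with library totals. The chromosome 16 median of clone 1 minus clone 2 was -0.26 both uninduced and stimulated, and its part was not tested.

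*Trf* (ENSMUSG00000032554, chr9:103204001-103230444, - strand), the plasma carrier of iron, was barely detected, with 117 counts over the 18 libraries. Uninduced WT libraries had 0, 0 and 1 counts, uninduced clone 1 libraries 12, 3 and 43, and uninduced clone 2 libraries 21, 12 and 11. Stimulated libraries had 0, 1 and 3 counts in WT cells, 4, 3 and 2 in clone 1 and 0, 1 and 0 in clone 2. Since the counts of the uninduced clones carried *Trf* through the filter, its differences are given with no test. All libraries of both uninduced clones were above those of uninduced WT cells per count sequenced, and 43 of the 58 counts of uninduced clone 1 came from replicate 3. From the summed counts, the ratio of uninduced clone 1 to uninduced WT cells was 63.0, with an exact 95% interval of 10.9 to 2533, and that of clone 2 was 32.5, with an interval of 5.53 to 1311. These intervals cover counting error only.

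The ratio of uninduced to stimulated *Trf* counts was 7.61 (3.74 to 17.5) in clone 1 and 25.9 (4.41 to 1045) in clone 2. With a floor of 1 CPM in 3 libraries, or with only the compared groups in the fit, *Trf* did not pass the filter. In M21, 63.5% of its exonic bases lie under *Gm20425*, a gene on the same strand, which had 0 counts. How reads in this overlap were counted is not stated, so that the counts of *Trf* may leave some out.

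*Slc11a2* (ENSMUSG00000023030, chr15:100387898-100425072, - strand), which carries ferrous iron across the endosomal membrane, had 54.3, 50.8 and 45.7 CPM in uninduced WT libraries. Uninduced clone 1 had 194, 173 and 191 CPM and uninduced clone 2 171, 167 and 172 CPM, far above WT cells in every library. The level was 3.70 times that of WT cells in clone 1, with a log2 fold change of 1.89 ± 0.0620 (SE, edgeR adjusted p = 5.41e-21), and 3.39 times in clone 2, at 1.76 ± 0.0617 (adjusted p = 2.62e-20). *Slc11a2* lies on chromosome 15, whose 407 genes at 5 CPM or more had a median log2 difference from WT cells of 0.46 in both uninduced clones and 0.45 and 0.43 in the stimulated clones. The part of the chromosome in the level of *Slc11a2* was not tested. The opposite-strand gene *Gm5475* covers 6.33% of its exonic bases and had 147 counts.

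WT libraries had 68.9, 64.3 and 64.7 CPM of *Slc11a2* after stimulation, those of clone 1 133, 119 and 122 CPM and those of clone 2 110.3, 119 and 112 CPM. On stimulation *Slc11a2* rose in WT cells, at 0.40 ± 0.0628 (SE, edgeR adjusted p = 2.99e-06), and fell in clone 1, at -0.58 ± 0.0584 (adjusted p = 8.97e-10), and clone 2, at -0.58 ± 0.0589 (adjusted p = 8.80e-10). The difference in response from WT cells was -0.97 ± 0.0857 in clone 1 and -0.98 ± 0.0861 in clone 2 (not tested). Stimulated clones remained above stimulated WT cells in every library, at 0.92 ± 0.0603 and 0.78 ± 0.0610. Clone 1 minus clone 2 was 0.13 ± 0.0577 uninduced (adjusted p = 0.0787) and 0.13 ± 0.0594 stimulated (adjusted p = 0.0726). The first passed the test without uninduced clone 1 replicate 2, at 0.17 (adjusted p = 0.0292), with library totals, at 0.16 (adjusted p = 0.0242), and with only the compared groups in the fit, at 0.13 (adjusted p = 0.0262). The second did so without stimulated clone 2 replicate 2, at 0.17 (adjusted p = 0.0475), with library totals, at 0.22 (adjusted p = 0.00278), and with no filter, at 0.15 (adjusted p = 0.0367).

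*Slc39a14* (ENSMUSG00000022094, chr14:70303469-70351425, - strand), a transporter of zinc, manganese and iron that is not bound to transferrin, rose on stimulation in every genotype. Before stimulation, WT libraries had 62.4, 67.0 and 60.8 CPM, those of clone 1 86.7, 77.8 and 85.0 CPM and those of clone 2 72.4, 75.3 and 74.4 CPM. WT libraries had 259, 252 and 245 CPM after stimulation, those of clone 1 642, 638 and 603 CPM and those of clone 2 638, 692 and 729.7 CPM. Every stimulated library was above every uninduced library, whatever the genotype, and every stimulated clone library was above every stimulated WT library. The gene rose 3.98-fold in WT cells, at a log2 fold change of 1.99 ± 0.0546 (SE, edgeR adjusted p = 3.44e-23). In clone 1 it rose 7.54-fold, at 2.92 ± 0.0551 (adjusted p = 6.45e-27), and in clone 2 9.27-fold, at 3.21 ± 0.0556 (adjusted p = 6.07e-28).

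In uninduced cells *Slc39a14* was higher in clone 1 than in WT cells by 0.39 ± 0.0552 (SE, edgeR adjusted p = 5.42e-07) and in clone 2 by 0.22 ± 0.0549 (adjusted p = 9.81e-04). Stimulated clones were at 2.49 and 2.72 times the stimulated WT level, a log2 difference of 1.32 ± 0.0512 and 1.44 ± 0.0514 (not tested). The response of clone 1 was smaller than that of clone 2, the difference being -0.30 ± 0.0738 (adjusted p = 0.00472). Clone 1 was above clone 2 uninduced, at 0.17 ± 0.0543 (adjusted p = 0.0126), and below it stimulated, at -0.13 ± 0.05003 (adjusted p = 0.0356). The uninduced call was lost without uninduced clone 1 replicate 1 (0.14), clone 1 replicate 3 (0.15) or clone 2 replicate 1 (0.15), with adjusted p of 0.0562 to 0.0867. The stimulated call was lost without stimulated clone 1 replicate 2 (-0.14) or 3 (-0.09) and without stimulated clone 2 replicate 2 (-0.12) or 3 (-0.08), with adjusted p of 0.0533 to 0.266, and with DESeq2 (-0.12, adjusted p = 0.0652) or library totals (-0.04, adjusted p = 0.493).

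*Slc40a1* (ENSMUSG00000025993, chr1:45908068-45926523, - strand), ferroportin, the known cellular iron exporter, had 12.0, 11.5 and 10.6 CPM in uninduced WT libraries. Uninduced clone 1 had 0.820, 1.13 and 2.07 CPM (16, 21 and 40 counts) and uninduced clone 2 0.736, 1.55 and 0.812 CPM (33, 35 and 14 counts). The uninduced clones were thus far below WT cells in every library, at a log2 fold change of -3.08 ± 0.227 in clone 1 (SE, edgeR adjusted p = 1.53e-12) and -3.51 ± 0.227 in clone 2 (adjusted p = 7.01e-14). As a share of the WT level this was 0.118 and 0.0878. Macrophages also make much ferroportin. The macrophage marker sums given above were highest in the uninduced clones, where *Slc40a1* was lowest, and lowest in WT libraries. They were mostly *Cd14*, with *Lyz2* at up to 6.30 CPM and *Cd68* at up to 1.45 CPM. *Ptprc* was at 0 in every library and *Adgre1*, *Csf1r*, *Itgam* and *Fcgr1* at 0.661 CPM or less. The part of these markers in the level of *Slc40a1* was not tested.

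WT libraries had 21.2, 25.5 and 22.4 CPM of *Slc40a1* after stimulation, those of clone 1 5.86, 6.93 and 5.28 CPM and those of clone 2 7.56, 8.50 and 8.78 CPM, above the uninduced libraries of the same genotype. *Slc40a1* rose by 1.02 ± 0.169 in WT cells (SE, edgeR adjusted p = 5.68e-06), 2.17 ± 0.237 in clone 1 (adjusted p = 4.73e-09) and 3.05 ± 0.235 in clone 2 (adjusted p = 2.53e-12). In WT cells it stood close to the fold threshold and was no DEG without uninduced WT replicate 3 (0.98), without stimulated WT replicate 2 (0.96) or with library totals (0.80). The response exceeded that of WT cells by 1.15 ± 0.296 in clone 1 and 2.03 ± 0.293 in clone 2 (not tested), while stimulated clones were still below stimulated WT cells, at -1.93 ± 0.177 and -1.48 ± 0.176. All stimulated clone libraries were also below all uninduced WT libraries.

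For *Slc40a1*, clone 1 minus clone 2 was 0.43 ± 0.298 uninduced (SE, edgeR adjusted p = 0.262) and -0.45 ± 0.189 stimulated (adjusted p = 0.0517). The uninduced value was -0.03 without uninduced clone 1 replicate 3 and 0.81 (adjusted p = 0.0410) without uninduced clone 2 replicate 2. The stimulated value passed the test without stimulated clone 1 replicate 2, at -0.57 (adjusted p = 0.0331), with DESeq2 (-0.44, adjusted p = 0.0385), with no filter (-0.43, adjusted p = 0.0418), with only the compared groups in the fit (-0.45, adjusted p = 0.0197) and with a replicate block (-0.46, adjusted p = 0.0460). The response of clone 1 minus that of clone 2 was -0.88 ± 0.353 (adjusted p = 0.102). It passed the test with DESeq2, at -0.87 (adjusted p = 0.0497), and both thresholds of a DEG without uninduced clone 1 replicate 1, at -1.14 (adjusted p = 0.0321), and without uninduced clone 2 replicate 2, at -1.26 (adjusted p = 0.0154). For the 582 genes of chromosome 1 at 5 CPM or more, the median of clone 1 minus clone 2 was -0.33 uninduced and -0.36 stimulated. The part of the chromosome was not tested.

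*Hmox1* (ENSMUSG00000005413, chr8:75093621-75100589, + strand), heme oxygenase 1, releases iron from heme and is known to be induced by oxidants. Before stimulation, WT libraries had 260.3, 316 and 299.7 CPM, those of clone 1 241, 255 and 224 CPM and those of clone 2 200.01, 210.3 and 206 CPM. Clone libraries lay below all WT libraries, with log2 fold changes of -0.28 ± 0.0650 in clone 1 (SE, edgeR adjusted p = 6.33e-04) and -0.51 ± 0.0650 in clone 2 (adjusted p = 2.02e-07). WT libraries had 166, 176 and 157 CPM after stimulation, those of clone 1 131, 133 and 119 CPM and those of clone 2 243, 234 and 212 CPM. Stimulated clone 1 was below and stimulated clone 2 above WT cells in every library, at -0.38 ± 0.0663 and 0.47 ± 0.0659 (not tested).

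On stimulation *Hmox1* fell in WT cells, at -0.81 ± 0.0656 (SE, edgeR adjusted p = 2.60e-11), and in clone 1, at -0.91 ± 0.0663 (adjusted p = 3.81e-12). In clone 2 it rose, at 0.16 ± 0.0654 (adjusted p = 0.0357), but with library totals in place of TMM factors the value was -0.13 (adjusted p = 0.0936), and the call was also lost without uninduced clone 2 replicate 1 (0.14), 2 (0.18) or 3 (0.16) and without stimulated clone 2 replicate 1 (0.14) or 2 (0.16). The clones differed in response, clone 1 minus clone 2 being -1.07 ± 0.0930 (adjusted p = 2.24e-09), past both thresholds of a DEG. *Hmox1* was higher in clone 1 than in clone 2 uninduced, at 0.23 ± 0.0651 (adjusted p = 0.00606, and 0.18 with an adjusted p of 0.0532 without uninduced clone 1 replicate 2), and lower stimulated, at -0.85 ± 0.0665 (adjusted p = 3.87e-11).

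*Ireb2* (ENSMUSG00000032293, chr9:54863789-54912530, + strand), which makes iron regulatory protein 2, had the smallest ratio of highest to lowest group mean among the 10 genes, with means from 94.2 to 117 CPM. Before stimulation, WT libraries had 112, 121 and 105 CPM, those of clone 1 112, 109 and 104 CPM and those of clone 2 113, 98.3 and 102 CPM, and the groups overlapped. The log2 fold changes were -0.06 ± 0.0589 (SE, edgeR adjusted p = 0.404, 95% interval -0.18 to 0.06) and -0.11 ± 0.0585 (adjusted p = 0.128, interval -0.23 to 0.01). The value in clone 2 passed the test without uninduced WT replicate 3, at -0.15 (adjusted p = 0.0460), without uninduced clone 2 replicate 1, at -0.17 (adjusted p = 0.0290), and with library totals, at -0.15 (adjusted p = 0.0318).

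WT libraries had 115, 117 and 119 CPM of *Ireb2* after stimulation, those of clone 1 93.5, 101 and 97.0 CPM and those of clone 2 90.3, 93.6 and 98.7 CPM, so that both stimulated clones were below stimulated WT cells in every library, at -0.27 ± 0.0586 and -0.31 ± 0.0594 (not tested). The response in WT cells was 0.05 ± 0.0585 (SE, edgeR adjusted p = 0.451), and -0.17 (adjusted p = 0.0116) with library totals. In the clones *Ireb2* fell, at -0.15 ± 0.0590 (adjusted p = 0.0281) and -0.15 ± 0.0594 (adjusted p = 0.0292). The call in clone 1 was lost without uninduced replicate 1 or 2 or stimulated replicate 1 or 3 of clone 1, with values of -0.15 to -0.11. The call in clone 2 was lost without uninduced replicate 1 (-0.09) or stimulated replicate 1 (-0.11) or 2 (-0.14) of clone 2.

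*Aco1* (ENSMUSG00000028405, chr4:40143081-40198338, + strand) makes the cytosolic aconitase that acts as iron regulatory protein 1 when it lacks its iron-sulfur cluster. Before stimulation, WT libraries had 317, 324 and 314 CPM, those of clone 1 232, 223 and 219 CPM and those of clone 2 241, 236 and 237 CPM, all clone libraries being below all WT libraries. The log2 fold change of clone 1 was -0.50 ± 0.0431 (SE, edgeR adjusted p = 3.50e-11) and -0.42 ± 0.0428 in clone 2 (adjusted p = 1.28e-09). WT libraries had 138, 139.9 and 138 CPM after stimulation, those of clone 1 189, 205 and 192 CPM and those of clone 2 154, 157 and 152 CPM, so that the order of the genotypes was the opposite of that in uninduced cells. Relative to stimulated WT cells, clone 1 was at 0.50 ± 0.0437 and clone 2 at 0.16 ± 0.0442 (not tested). The 633 genes of chromosome 4 at 5 CPM or more had median log2 differences from WT cells of -0.22 and -0.23 in the uninduced clones. In the stimulated clones these medians were -0.24 and -0.27, and the part of the chromosome in the level of *Aco1* was not tested.

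*Aco1* fell on stimulation in all 3 genotypes, to 0.435 of the uninduced level in WT cells, at a log2 fold change of -1.20 ± 0.0438 (SE, edgeR adjusted p = 3.83e-20). In clone 1 the fall was smaller, at -0.20 ± 0.0432 (adjusted p = 2.50e-04), and in clone 2 it was -0.62 ± 0.0437 (adjusted p = 2.76e-13). The responses of the clones differed from that of WT cells by 1.00 ± 0.0613 and 0.58 ± 0.0615 (not tested), and clone 1 minus clone 2 was 0.42 ± 0.0614 (adjusted p = 6.39e-06). The clones differed by -0.08 ± 0.0430 uninduced (adjusted p = 0.132) and *Aco1* was higher in clone 1 stimulated, at 0.34 ± 0.0438 (adjusted p = 1.55e-07).

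Between the clones, 0 of the 10 genes were DEGs in uninduced cells by edgeR or by DESeq2, beside 8.67% of all genes tested (4.89% higher in clone 1, 3.78% lower), and 6 had an unadjusted p under 0.05 in edgeR. In stimulated cells 0 of 10 were DEGs by either tool, beside 9.98% (5.5% and 4.48%), and 8 had an unadjusted p under 0.05. By the adjusted p alone, 5 of 10 differed uninduced, beside 42.2% of all genes, and 6 of 10 stimulated, beside 45.4%, all under the fold threshold. The response differed as a DEG for 1 of 10, *Hmox1*, lower in clone 1, beside 3.02% (1.54% and 1.48%), and by the adjusted p alone for 3 of 10, beside 14.5%. The medians of the 10 genes were 0.15 uninduced, -0.04 stimulated and 0.0020 for the difference in response, beside 0.0042, 0 and 0 over all genes.

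Per kb of gene length, mean levels in uninduced WT cells ran from 7132 CPM per kb for *Fth1* and 1337 for *Ftl1* through 167 for *Hmox1*, 70.8 for *Aco1* and 11.9 for *Ireb2* to 1.26 for *Slc40a1*. *Slc11a2*, *Tfrc* and *Slc39a14* lay close together, at 7.92, 7.37 and 6.01 CPM per kb. In stimulated clone 1 and clone 2, *Slc39a14* reached 59.5 and 65.1 CPM per kb, above *Aco1* at 43.5 and 34.3. The ferritin heavy chain transcript was thus more than any other iron handling transcript of the 10 in all groups.

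A list of 56 other genes of iron, heme and iron-sulfur cluster metabolism, 48 of which passed the filter, was set beside the 10 genes. In uninduced clone 1, 4 of 48 were DEGs (3 higher, 1 lower; median log2 fold change 0.10), and in uninduced clone 2, 6 of 48 (3 higher, 3 lower; median 0.10), beside 15.1% of all genes in either clone. *Lcn2*, lipocalin 2, which binds iron-loaded siderophores, had 1.09 ± 0.413 CPM (SD, n = 3) in uninduced WT cells against 318 ± 22.0 CPM in clone 1 and 244 ± 11.7 CPM in clone 2. Its log2 fold change was 8.10 ± 0.118 for clone 1 (SE, edgeR adjusted p = 1.32e-24) and 7.72 ± 0.118 in clone 2 (adjusted p = 3.05e-24). *Cp*, ceruloplasmin, a ferroxidase that acts with ferroportin, had 20.4 ± 4.06 CPM in WT cells against 447 ± 14.6 CPM in clone 1 and 366 ± 16.4 CPM in clone 2, with log2 fold changes of 4.47 ± 0.0815 (adjusted p = 4.37e-25) and 4.18 ± 0.0808 (adjusted p = 1.20e-24).

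*Steap3*, the ferrireductase of the endosome, was lower in uninduced clone 1, at 187 ± 7.73 CPM (SD, n = 3) against 489.9 ± 17.3 CPM in WT cells and a log2 fold change of -1.39 ± 0.0534 (SE, edgeR adjusted p = 2.54e-19). In uninduced clone 2 it was lower too, at 257 ± 2.11 CPM and -0.93 ± 0.0525 (adjusted p = 2.44e-15), under the fold threshold. *Hspa9*, a mitochondrial chaperone of cluster assembly, was higher in clone 2, at 583 ± 20.8 against 289 ± 18.4 CPM and 1.01 ± 0.0491 (adjusted p = 6.63e-17). The fourth DEG of clone 1 was *Hephl1*, a ferroxidase, at 0.994 against 0.0381 CPM, a low gene named after its values were seen. Only clone libraries carried it through the filter, so that its place in the count is a description. None of the 15 genes of iron-sulfur cluster assembly was a DEG in uninduced clone 1, and 1 of 15, *Hspa9*, was in clone 2.

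In response to stimulation, 8 of the 48 genes were DEGs in WT cells (4 higher, 4 lower; median 0.10), 9 in clone 1 (5 and 4; median 0.09) and 14 in clone 2 (9 and 5; median 0.13), beside 19.9%, 16.7% and 17.7% of all genes. Of the 11 genes of uptake and iron reduction, WT cells had 6 DEGs, clone 1 had 6 and clone 2 had 8, beside the same shares of all genes. In that order, export and oxidation had 1, 2 and 2 of 3 and regulators 1, 0 and 1 of 5. Heme breakdown had 0, 0 and 1 of 3, heme synthesis 0, 0 and 1 of 8. Iron-sulfur cluster assembly had 0, 1 and 1 of 15 and storage and chaperones 0 of 3 each. *Tfr2*, among the DEGs of WT cells and clone 2, had 3.86 CPM in stimulated WT cells and 0.408 CPM or less elsewhere. Only stimulated WT libraries carried it through the filter, so that its place in these counts is a description. *Cp* fell in all genotypes, from 20.4 ± 4.06 to 2.20 ± 0.263 CPM in WT cells, a log2 fold change of -3.20 ± 0.126 (SE, edgeR adjusted p = 4.85e-18). Its response was -3.06 ± 0.0735 in clone 1 (adjusted p = 1.02e-22) and -2.50 ± 0.0726 in clone 2 (adjusted p = 5.49e-21), leaving 53.5 ± 2.06 and 64.9 ± 1.57 CPM. *Lcn2* rose in the clones, by 2.44 ± 0.0689 (adjusted p = 3.21e-19) and 2.61 ± 0.0694 (adjusted p = 7.82e-20), to 1719 ± 126 and 1491 ± 37.1 CPM, and stood at 4.35 ± 0.573 CPM in stimulated WT cells. In WT cells it rose by 1.92 ± 0.187 (adjusted p = 4.15e-09).

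*Steap3* fell in WT cells from 489.9 ± 17.3 to 74.9 ± 5.13 CPM, at -2.71 ± 0.0565 (SE, edgeR adjusted p = 5.18e-26). It also fell in clone 1, at -1.16 ± 0.0549 (adjusted p = 2.46e-17), and in clone 2, at -1.67 ± 0.0557 (adjusted p = 3.78e-21), to 83.4 ± 2.39 and 80.6 ± 6.17 CPM. *Steap4*, a metalloreductase, fell in WT cells from 7.34 ± 1.41 to 0.282 ± 0.290 CPM, at -4.65 ± 0.353 (adjusted p = 4.22e-12), in clone 1, at -3.49 ± 0.289 (adjusted p = 3.44e-11), and in clone 2, at -2.37 ± 0.250 (adjusted p = 4.16e-09). *Steap1* rose in all 3 genotypes, at 1.47 ± 0.186 in WT cells (adjusted p = 8.72e-08), 1.91 ± 0.184 in clone 1 (adjusted p = 5.43e-10) and 2.49 ± 0.166 in clone 2 (adjusted p = 1.72e-13), where it reached 34.2 ± 1.74 CPM. *Slc46a1*, a heme and folate transporter, went from 9.79 ± 3.02 to 16.1 ± 1.17 CPM in WT cells, from 5.30 ± 0.832 to 26.4 ± 2.82 CPM in clone 1 and from 5.26 ± 0.488 to 19.9 ± 0.936 CPM in clone 2. Its response exceeded that of WT cells by 1.60 ± 0.214 and 1.21 ± 0.213 (not tested).

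**Figure D5:**
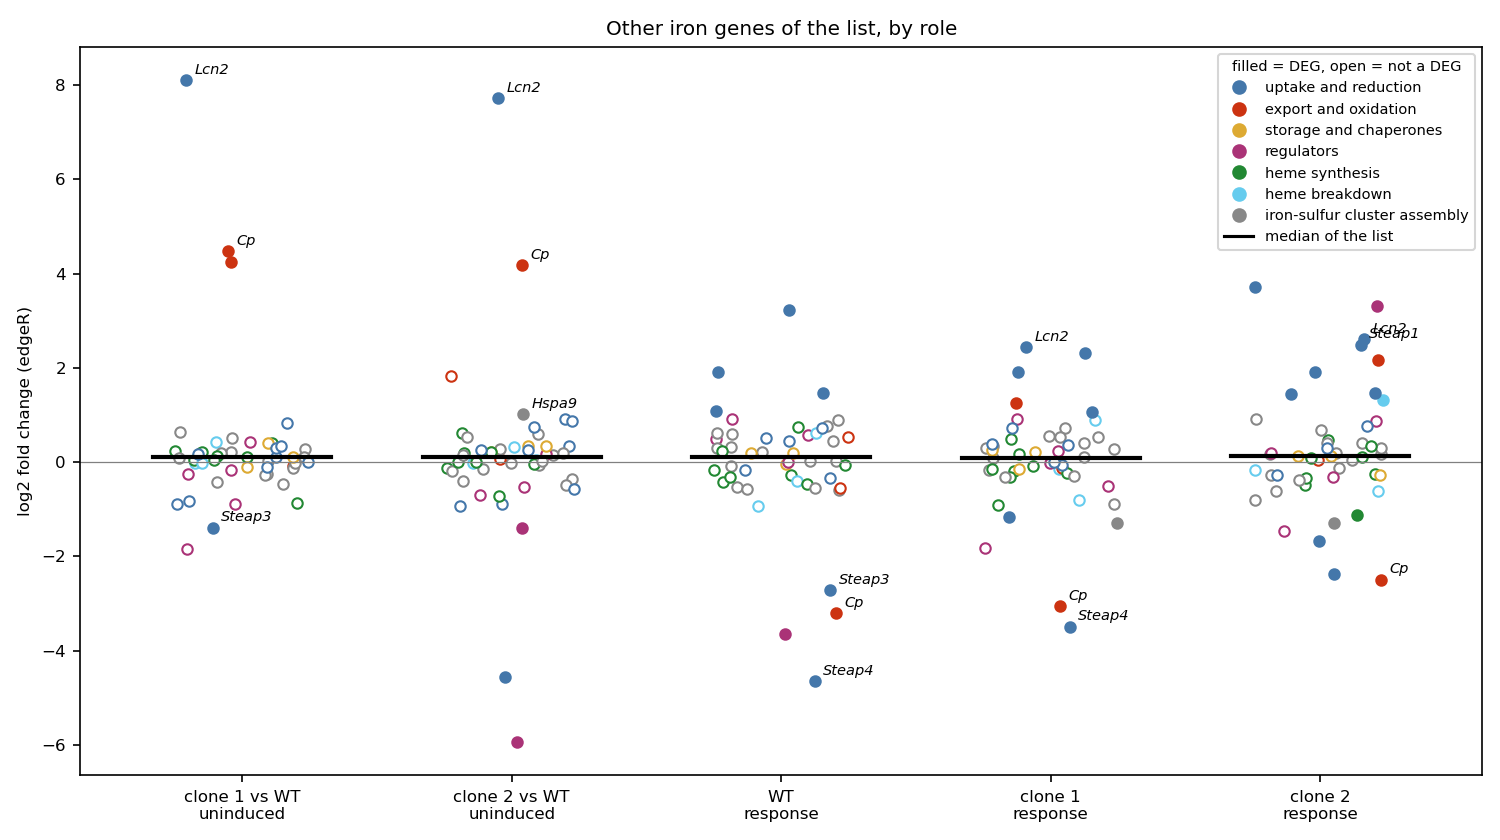
Log2 fold change (y axis) of the 48 other iron genes tested in the uninduced clones relative to WT cells and in the responses of WT cells, clone 1 and clone 2 (x axis), coloured by role, filled for DEGs, with names for the genes the text names by rule and a black line at the median of the list. The medians lie between 0.09 and 0.13, while *Lcn2* and *Cp* lie above 4 in both uninduced clones.

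Between stimulated clones and stimulated WT cells, the thresholds of a DEG, again as a description, took in 6 of 48 other iron genes in clone 1 and 11 of 48 in clone 2, beside 19% and 16.9% of all genes. *Lcn2* was at 8.62 ± 0.101 and 8.42 ± 0.1005 there, *Cp* at 4.61 ± 0.113 and 4.89 ± 0.113, and *Steap4*, low in these cells, at 1.51 ± 0.475 and 3.16 ± 0.406. Between the clones there were 3 DEGs of 48 uninduced, 4 stimulated and 1 in the response, beside 8.67%, 9.98% and 3.02% of all genes. *Steap1* was lower in stimulated clone 1 than in clone 2, at -1.31 ± 0.155 (SE, edgeR adjusted p = 4.84e-08), as was *Steap4*, at -1.65 ± 0.331 (adjusted p = 1.57e-04). The others, named after their values were seen because they were low, were *Hfe*, *Hephl1* and *Tfr2* uninduced and *Hfe* and *Hephl1* stimulated, all higher in clone 1. *Tfr2* and *Hephl1* were under 3 CPM in both clones. *Tfr2* was near 0 in uninduced cells, at 0.225 CPM in clone 1 and 0.00744 CPM in clone 2, so that its call rests on few counts. *Hfe*, the hemochromatosis gene, which sets hepcidin levels in liver, had 7.19 CPM in uninduced clone 1, 0.0758 CPM in uninduced clone 2 and 5.37 CPM in uninduced WT cells. It was also the DEG of the response, clone 1 minus clone 2 being -3.33 ± 0.613 (adjusted p = 1.88e-04).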

How the data were processed

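Poly(A) RNA of 18 libraries was sequenced and, per the labels, reads were mapped to mm10 (GRCm38) with HISAT2. The authors deposited raw counts per gene, whole numbers without normalization, in 1 table with the position and length of 54532 genes. The program that counted reads, its strand option and the annotation release are not stated in the sources used here. All 18 columns of counts were matched to libraries by name.

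Groups were taken from the labels. Genes were kept by filterByExpr with a minimum count of 10, which left 14317, scaled by TMM and fitted in edgeR 4.0.16 (R 4.3.3) with robust quasi-likelihood and 1 mean per group over all 18 libraries, without covariates. Contrasts were tested with Benjamini-Hochberg adjustment over all genes. CPM used the TMM library sizes, and log2 CPM a prior count of 2. In all 18 pairs of replicates, counts differed by more than sampling noise (chi-square over its degrees of freedom, 3.13 to 14.6). The fit was tested on simulated data.

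The members and gene lists were chosen with earlier results of these data known. The text names all 10 genes, *Foxs1* and, per comparison, the 3 DEGs of the list of other iron genes with the largest absolute log2 fold change and a mean of at least 5 CPM. For *Fth1*, the 5 genes most correlated over the libraries are named. Gene positions were compared with GENCODE M21 (53462 of 54532 genes at the same position), copies of ferritin were sought with BLAST 2.17.0+ and IREs in M21 transcripts. Alternatives were DESeq2 1.42.0, its size factors, library totals, other filters (none, or 1 CPM in 3 libraries), only the compared groups, a replicate block, no fold threshold, ferritin copies added and each library left out in turn.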

Additional observations from a re-analysis of the deposited data

Results flagged for a closer look

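The responses of 3 genes to TGF-β1 + DMII differed between FOXS1 KO clone 1 and clone 2 by the test of the difference itself in edgeR, with adjusted p-values over all genes tested. For *Hmox1*, clone 1 minus clone 2 was -1.07 ± 0.0930 on the log2 scale (SE, adjusted p = 2.24e-09), since it fell in clone 1 and not in clone 2. For *Aco1* it was 0.42 ± 0.0614 (adjusted p = 6.39e-06), since it fell more in clone 2. For *Slc39a14* it was -0.30 ± 0.0738 (adjusted p = 0.00472), since it rose more in clone 2. These 3 differences passed the test in every alternative fit and with any single library left out, and what underlies them was not tested.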

How the results depend on the processing

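Without the fold threshold, 8 of 10 genes were taken in for uninduced clone 1 and 9 of 10 for uninduced clone 2, in place of 3 each. The shares of all genes were 53.5% and 53.2%, and *Trf*, given with no test, is among the 10. As a description only, with *Trf* and *Fth1* among the 10, 9 and 8 were taken in for the stimulated clones in place of 3 each. The shares of all genes there were 58.9% and 56%, and nothing is read from these counts. With *Trf* but not *Fth1*, the counts were 7, 8 and 8 of 9 for the responses of WT cells, clone 1 and clone 2 in place of 3 each. The shares of all genes were 60.7%, 54.5% and 55.8%. Between uninduced and stimulated clones, 5 and 6 of 10 were taken in, beside 42.2% and 45.4% of all genes, in place of 0. For the difference in response it was 3 of 10, beside 14.5%, in place of 1. That last count was 1 to 2 over fits without 1 library, and it was 2 without uninduced clone 1 replicate 1 or uninduced clone 2 replicate 2. With ferritin copies added, the heavy to light ratio was 6.23 in stimulated WT cells, 13.9 in stimulated clone 1 and 21.0 in stimulated clone 2, against 6.37, 14.3 and 21.5. Reads dropped from both *Ftl1* and a copy would be missing from either ratio.

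With library totals in place of TMM factors, the median log2 fold change of all genes moved by -0.22, -0.24 and -0.29 for the responses of WT cells, clone 1 and clone 2 and by -0.11 for stimulated clone 2 against WT cells. *Ireb2* in the WT response then turned to -0.17, *Hmox1* in the clone 2 response to -0.13 and *Tfrc* in stimulated clone 2 against WT cells to -0.080, each a move of the size of that shift. With library totals, DEGs in the clone 1 response were also 4 of 9 genes, *Trf* included, in place of 3. The difference in response of *Ireb2*, near 0, turned to 0.0087 with DESeq2, 0.0081 with its size factors, 0.053 with library totals and 0.043 without a filter. Values that crossed 0 without 1 library were those of genes whose difference between the clones did not pass the test with all libraries. For the difference in response they ran from -0.064 to 0.046 for *Ireb2*, -0.016 to 0.078 for *Tfrc* and -0.043 to 0.043 for *Slc11a2*. Between uninduced clones they ran from -0.46 to 1.39 for *Trf*, -0.032 to 0.81 for *Slc40a1* and -0.00011 to 0.11 for *Ireb2*.

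No pairing of the libraries by replicate number was seen, though the sources do not say how they were prepared and this check cannot exclude pairing. The deviations of same-numbered libraries from their group means had correlations of -0.076 to 0.135, and in 0 of 9 pairs of groups were all 3 above 0.1. With a replicate block the counts stood as before in all 10 comparisons, and *Ftl1* in the clone 2 response (-0.14, adjusted p = 0.0274) and *Slc40a1* between stimulated clones (-0.46, adjusted p = 0.0460) came under the threshold. Depth limits *Trf*, whose counts were 43 or fewer in each library, and *Slc40a1* in the uninduced clones.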
